A study of Mus musculus with 36 samples.

Results

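Costimulatory receptors and ligands set how strongly a CD4 T cell responds once its antigen receptor is engaged. The 9 genes described here, Cd28, Cd27, Tnfrsf4, Tnfrsf9, Cd40lg, Tnfsf8, Cd226, Cd5 and Cd6, were taken by name from a table of 56748 genes, and all 9 were found and tested in every comparison. The samples were CD4 T cells of 2 mouse lines, which lack the heterochromatin proteins HP1a and HP1g respectively, read out by bulk RNA-seq in a bone marrow graft model built to ask how these proteins bear on suppression by regulatory T cells (Treg). Each line was sampled as naive cells, as conventional T cells recovered after graft (Tconv) and as Tconv grafted together with Treg, in wild-type (WT) and knockout (KO) form, which gave 12 groups.

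Naive CD4 T cells came from the spleen by magnetic negative selection. For the grafted groups, lethally irradiated hosts, either C57BL/6 J or B6 mice carrying CD45.1, received T and NK cell-depleted C57BL/6 and B6D2F1 bone marrow together with WT or KO naive cells, with or without Treg expanded ex vivo from wild-type Foxp3-Thy1.1 mice. The paper gives the Treg as injected at various ratios. After 3 weeks, donor cells that carried the TCR Vb6 chain and lacked H-2Kd, CD45.1 and Thy1.1, the reporter of the injected Treg, were sorted from the spleen. The irradiated host and both marrows were possible sources of other cells, and the B6D2F1 marrow was the semi-allogeneic one. According to the paper, WT and KO naive cells given without Treg rejected the semi-allogeneic marrow, and Treg protected it to a degree that depended on their dose. Groups with and without Treg could thus differ in the marrow cells left in the host, and the part of this in the results was not tested. HP1a KO cells came from a germline deletion made with CMV-cre, with WT littermates as controls, so that every cell of the animal lacked the gene. HP1g KO cells came from a floxed allele deleted by Cd4-cre, with littermates homozygous for the floxed allele and without Cre as WT. Both lines had a genetic background mixed from 129/Sv and C57BL/6, and mice were sex-matched and 6 to 12 weeks old. All groups had 3 libraries except HP1g KO Tconv with Treg, which had 2, because the library that the study set aside for abnormal read quality was left out. The labels do not say that replicates were separate animals, so p-values measure only the spread between these libraries.

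The 35 libraries held 37029477 to 63042165 estimated counts. Levels are in CPM, a gene's counts relative to all counts of its library after scaling between libraries. A member was called changed where edgeR's quasi-likelihood test gave a p under 0.05, adjusted over all genes by Benjamini-Hochberg, and the absolute log2 fold change was above 1. The 7 T cell markers, among them Cd3d, Cd4 and Lck, summed to 5952 to 10165 CPM in every library, while the 8 B cell markers reached at most 62.9 CPM. Sums of the 12 myeloid markers reached 607 CPM (HP1a KO with Treg) and those of the 6 erythroid markers 6103 CPM (HP1g KO with Treg). In HP1g WT Tconv they were 27.3 to 449 CPM for myeloid and 75.7 to 4963 CPM for erythroid markers. The part of such cells in the results was not tested. Cbx5, which encodes HP1a, was lower in the KO cells of the HP1a line (10.9 ± 1.52 CPM against 22.3 ± 3.23 CPM in WT, naive cells; SD, n = 3), and Cbx3, which encodes HP1g, was lower in HP1g KO cells (71.8 ± 8.12 against 141 ± 51.6 CPM; SD, n = 3). In bulk samples such as these, fewer cells of a type and less RNA per cell cannot be told apart.

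CD28 binds CD80 and CD86 on antigen-presenting cells and gives the classical second signal for naive T cells. CD27, OX40 (Tnfrsf4) and 4-1BB (Tnfrsf9) are receptors of the tumour necrosis factor (TNF) receptor family that signal through TRAF adaptors to NF-kB, while CD40L (Cd40lg) and CD30L (Tnfsf8) are TNF family ligands that T cells show to other cells. CD226 (DNAM-1) is activated by CD155 and shares this ligand with the inhibitory receptors TIGIT and CD96, and the related CD5 and CD6 tune signalling from the antigen receptor.

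The reference table of promoters (RefSeq, GRCm38.p6, an older build than the one of the count table) held 6 windows for 5 members, Tnfsf8, Tnfrsf9, Tnfrsf4, Cd27 and Cd5. The 250 bases before the annotated start are shown for Tnfrsf9, Tnfsf8 and Cd27, the 3 members that rose when Treg were present in WT cells of the HP1a line. For Tnfrsf9 the second of its 2 listed starts is shown, because its window holds the motifs. The window of the other start (chr4:150919905-150920154, + strand) held neither motif. Capitals mark AP-1 motifs (TGAGTCA or TGACTCA) and NF-kB motifs, searched on both strands.
Tnfrsf9 (chr4:150927749-150927998, + strand): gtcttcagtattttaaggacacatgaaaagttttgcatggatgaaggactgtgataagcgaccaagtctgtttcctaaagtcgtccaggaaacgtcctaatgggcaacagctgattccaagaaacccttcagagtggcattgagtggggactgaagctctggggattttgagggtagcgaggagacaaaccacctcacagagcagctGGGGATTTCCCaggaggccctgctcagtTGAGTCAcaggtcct
Tnfsf8 (chr4:63861285-63861534, - strand): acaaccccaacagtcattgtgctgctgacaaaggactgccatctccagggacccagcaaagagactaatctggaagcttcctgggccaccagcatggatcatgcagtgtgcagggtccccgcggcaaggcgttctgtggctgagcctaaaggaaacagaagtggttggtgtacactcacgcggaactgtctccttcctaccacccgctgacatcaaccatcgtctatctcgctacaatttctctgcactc
Cd27 (chr6:125237028-125237277, - strand): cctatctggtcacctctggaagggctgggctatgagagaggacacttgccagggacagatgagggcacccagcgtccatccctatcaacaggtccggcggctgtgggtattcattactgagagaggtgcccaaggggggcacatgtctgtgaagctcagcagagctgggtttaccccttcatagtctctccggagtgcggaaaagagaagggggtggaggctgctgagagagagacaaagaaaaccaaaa
The Tnfrsf9 window shown held 1 AP-1 motif and 2 overlapping NF-kB motifs that form a single run. Of all 32851 promoter windows of this length, 4.46% held an AP-1 motif and 3.9% an NF-kB motif. The windows of Tnfsf8 and Cd27 held neither of these letter strings, which says nothing of whether the factors bind elsewhere.

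The 9 genes fell into a steady and a variable set by the spread of their group means. Cd28, Cd5 and Cd6 moved least, with the highest group mean 1.55, 1.53 and 1.55 times the lowest, and Cd40lg followed at 2.12 times. Cd27 spanned 5.13-fold, Cd226 6.28-fold, Tnfsf8 8.48-fold, Tnfrsf9 15.0-fold and Tnfrsf4 57.3-fold. Reads were ample for all of them, since the lowest count of any member in any library was 148, for Tnfrsf4 in a naive library.

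**Figure D1:**
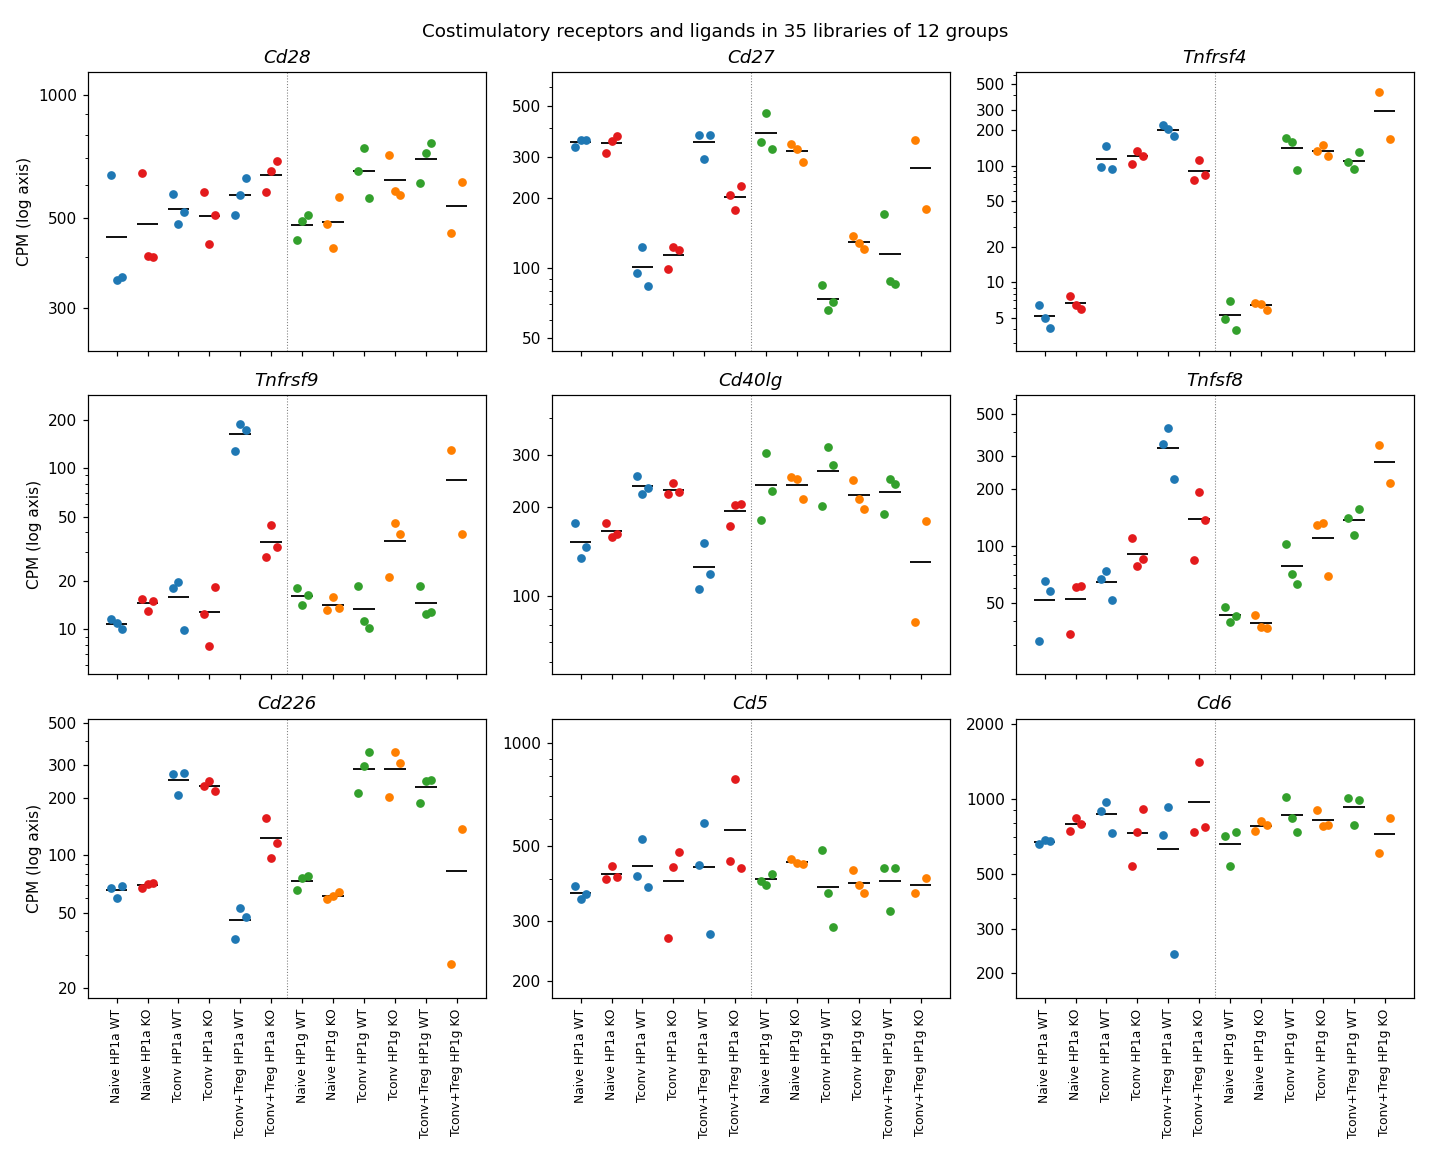
Level of each gene in CPM (log axis) in each of the 35 libraries, by group, with the HP1a line left and the HP1g line right of the dotted line; points are libraries and bars group means. Tnfrsf4 lay between 3.88 and 7.70 CPM in the naive libraries and at 74.6 CPM or more in every grafted library.

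Divided by the length of annotated exons, naive HP1a WT cells held Cd27 at the highest level, 148 ± 6.31 CPM per kb (SD, n = 3). Cd6 (84.5 ± 1.56 CPM per kb), Cd40lg (82.4 ± 11.5), Cd28 (73.3 ± 26.7) and Cd5 (72.1 ± 3.16) formed a middle group, in which most neighbours lay within their SDs. Tnfsf8 (13.5 ± 4.70 CPM per kb) and Cd226 (13.1 ± 1.04) came next and could not be ordered, nor could Tnfrsf9 (3.98 ± 0.300) and Tnfrsf4 (3.75 ± 0.844) at the bottom. In Tconv of the same genotype Cd40lg led at 127 ± 9.11 CPM per kb and Tnfrsf4 had reached 82.3 ± 22, while Cd27 had dropped to 43.1 ± 8.68. With Treg, Cd27 (148 ± 19.97 CPM per kb) and Tnfrsf4 (148 ± 16.6) stood together at the top, and Cd226 was last at 9.15 ± 1.66.

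To see which of these genes changed with allogeneic activation, Tconv were compared with naive cells of the same line and genotype. OX40 and CD226 transcripts were higher and CD27 transcripts lower in all 4 comparisons, and these were the only calls in 3 of them. In the HP1a line 3 of 9 members were called in WT cells, where 23.1% of 16027 genes tested were called, and 3 in KO cells (19.7% of genes tested). In the HP1g line 3 were called in WT cells (23.5%) and 5 in KO cells (23.1%). In 3 of the comparisons the 3 calls among 9 members thus stood beside a share of 19.7% to 23.5% of all genes. DESeq2 called the same number of members in each comparison (20.3%, 18.6%, 22% and 20.1% of its genes in the order above). The groups did not overlap for 5, 5, 6 and 7 members, against 57.8%, 54.9%, 52% and 53.6% of genes.

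Tnfrsf4 (chr4:156098293-156101069 in GRCm39), whose protein OX40 supports survival of activated T cells, was at 6.38, 4.95 and 4.08 CPM in the naive HP1a WT libraries and at 97.6, 148 and 93.5 CPM in Tconv. All Tconv libraries lay far above all naive ones, with no overlap. The log2 fold change was 4.47 ± 0.25 (SE; adjusted p = 5.18e-06, edgeR), and it was 4.18 ± 0.15, 4.74 ± 0.34 and 4.42 ± 0.13 in HP1a KO, HP1g WT and HP1g KO cells. Among all genes tested this placed Tnfrsf4 between percentiles 95.2 and 96.1 of fold changes.

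Cd27 (chr6:125209585-125213988), a receptor that naive cells already carry, was at 331, 357 and 356 CPM in naive HP1a WT libraries and at 95.8, 124 and 83.9 CPM in Tconv, again without overlap. The log2 fold change was -1.77 ± 0.14 (SE; adjusted p = 2.86e-05, edgeR) in HP1a WT and -2.36 ± 0.20 in HP1g WT cells, and smaller in size in the KO cells, at -1.58 ± 0.11 for HP1a and -1.28 ± 0.11 for HP1g. Cd226, on chromosome 18, rose from 67.4, 59.6 and 69.4 CPM to 268, 208 and 272 CPM in HP1a WT cells. Its log2 fold change was 1.94 ± 0.13 (SE; adjusted p = 9.30e-06, edgeR), and 1.75 ± 0.07, 1.96 ± 0.21 and 2.25 ± 0.19 in the other groups in the order above. Each of these calls held whichever library was omitted.

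Tnfrsf9 and Tnfsf8 were called in HP1g KO cells. Tnfrsf9 (chr4:150999019-151030559) was at 13.1, 15.9 and 13.5 CPM in naive and at 21.1, 45.7 and 38.8 CPM in Tconv libraries (log2 fold change 1.34 ± 0.27 SE, adjusted p = 0.00496, edgeR). Tnfsf8 (chr4:63749542-63779592) was at 43.1, 37.4 and 36.7 CPM in naive and at 129, 132 and 69.6 CPM in Tconv libraries (1.52 ± 0.24, adjusted p = 0.00218). In HP1g WT cells Tnfsf8 changed by 0.86 ± 0.21 and Tnfrsf9 by -0.28 ± 0.26 on the log2 scale. The difference between the genotypes, tested as an interaction, was 1.65 ± 0.39 for Tnfrsf9 (adjusted p = 0.343, edgeR) and 0.68 ± 0.33 for Tnfsf8 (adjusted p = 0.630), neither of which passed. In the same HP1g KO comparison, where 23.1% of all genes tested were called, all 10 Treg markers were called, 6 higher and 4 lower. The 4 lower were Foxp3, Gpr83, Ikzf4 and Lrrc32. Foxp3 was at 6.63, 5.82 and 9.41 CPM in naive and at 2.21, 1.91 and 2.47 CPM in Tconv libraries. The sum of all 10 nonetheless went from 144 to 151 CPM in naive to 510 to 740 CPM in Tconv libraries. Of 12 myeloid markers 8 of the 9 tested rose, to a sum of 41.8 to 122 CPM from 9.79 to 12.2 CPM, and 5 of 6 erythroid markers rose, to 159 to 3326 CPM from 64.5 to 78.6 CPM. Their part was not tested.

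**Figure D2:**
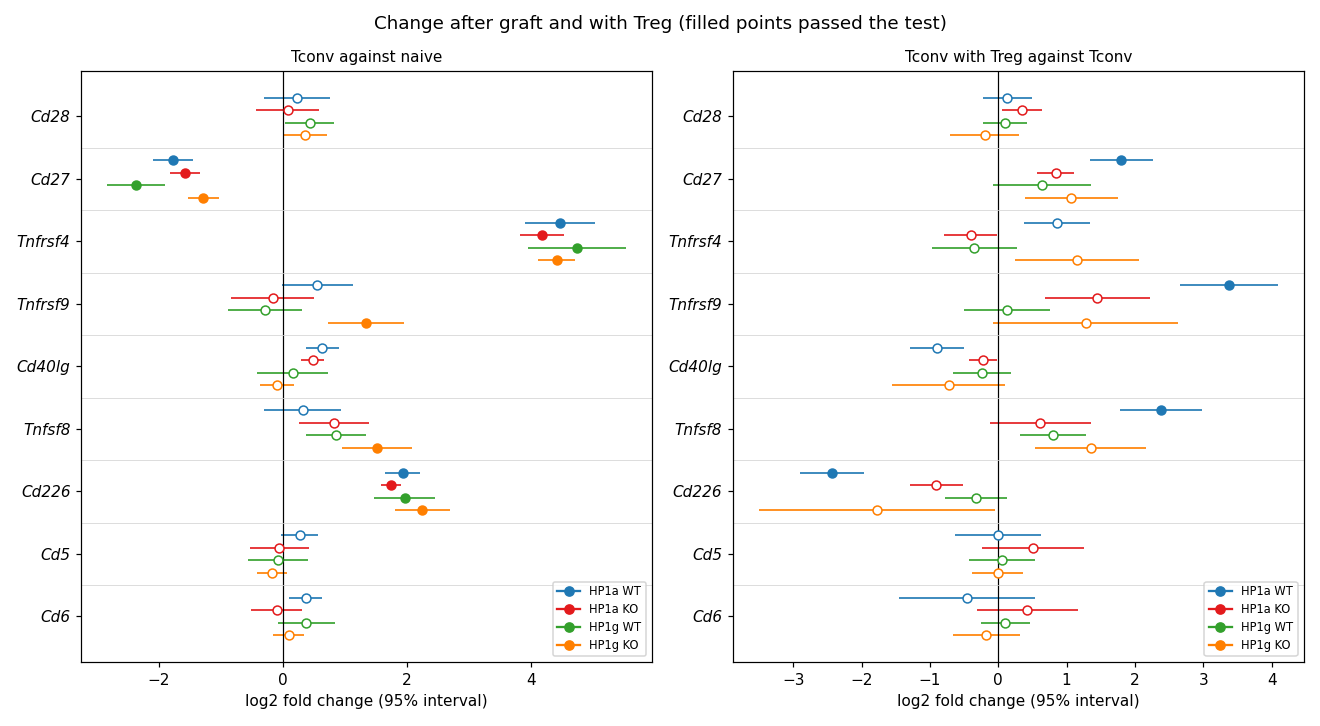
Log2 fold change with its 95% interval for each gene in Tconv against naive cells (left) and in Tconv with Treg against Tconv (right), in colour by line and genotype; filled points were called by edgeR. Tnfrsf4, Cd27 and Cd226 were called in all 4 groups on the left, while the calls on the right were in HP1a WT cells, for Cd27, Tnfrsf9, Tnfsf8 and Cd226.

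The presence of Treg changed the set in WT cells of the HP1a line. Tnfrsf9, Tnfsf8 and Cd27 rose and Cd226 fell, so that 4 of 9 members were called where 5.96% of 15627 genes tested were. All 4 calls held whichever of the 6 libraries was omitted, and DESeq2 made the same 4 calls (9.26% of its genes were called). The groups did not overlap for 6 members, against 34.4% of genes.

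Tnfrsf9, whose protein 4-1BB appears on recently activated cells and on Treg, was at 17.9, 19.8 and 9.86 CPM in Tconv and at 127, 189 and 172 CPM with Treg. The groups were far apart, with a log2 fold change of 3.37 ± 0.31 (SE; adjusted p = 0.00169, edgeR), 10.4-fold. Tnfsf8, the ligand of CD30, was at 66.9, 74.1 and 52.0 CPM without and at 349, 419 and 225 CPM with Treg. All libraries with Treg lay above all without, at a log2 fold change of 2.38 ± 0.26 (adjusted p = 0.00322, edgeR).

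Cd27 was at 375, 293 and 374 CPM with Treg, close to but outside the range of the naive HP1a WT libraries (331 to 357 CPM). Each of these values lay above each Tconv library (log2 fold change 1.80 ± 0.20 SE, adjusted p = 0.00348, edgeR). Cd226 was at 36.5, 52.7 and 47.6 CPM with Treg, below every Tconv library and also below every naive HP1a WT library (against Tconv, -2.43 ± 0.20, adjusted p = 0.00122). Against Tconv the 2 genes thus moved in opposite directions, each the reverse of its change after graft. Tnfrsf4 was at 224, 206 and 178 CPM with Treg, above every Tconv library, with a log2 fold change of 0.86 ± 0.21 (adjusted p = 0.0503, edgeR). Cd40lg, which licenses B cells and dendritic cells through CD40, was at 106, 150 and 118 CPM with Treg and at 254, 221 and 232 CPM without (-0.90 ± 0.17, adjusted p = 0.0208, edgeR), under the fold threshold. At any fold, 7.54% of genes passed an adjusted p of 0.05.

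In the other 3 groups edgeR called no member for the presence of Treg. In HP1a KO cells 0.44% of genes tested were called, and 6 members had an unadjusted p under 0.05, as had 15.8% of genes. Cd27 moved from 99.5, 123 and 120 CPM to 206, 177 and 226 CPM (log2 fold change 0.84 ± 0.12 SE, adjusted p = 0.0346, edgeR), short of the fold threshold (0.756% of genes passed at any fold). Tnfrsf9 was at 12.4, 7.89 and 18.2 CPM without and at 28.0, 44.3 and 32.3 CPM with Treg (1.45 ± 0.32, adjusted p = 0.109, edgeR), and was the 1 member DESeq2 called (2.5% of its genes). Cd226 was at 233, 246 and 219 CPM without and at 157, 97.1 and 116 CPM with Treg (-0.90 ± 0.17, adjusted p = 0.0741). Each of these 3 had groups that did not overlap, as had 4 of 9 members and 22.6% of all genes.

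For HP1g WT cells edgeR called 0.0126% of genes, 1 member and 6.89% of genes had an unadjusted p under 0.05, and DESeq2 called no member (0.333% of its genes). The groups did not overlap for 2 members and 13.4% of genes. Tnfrsf9 stayed between 12.5 and 18.5 CPM with Treg, against 18.6, 11.2 and 10.2 CPM without (log2 fold change 0.13, 95% interval -0.49 to 0.76). Cd226 was at 189, 246 and 251 CPM with Treg and at 214, 296 and 349 CPM without, lower in each of the 3 pairs of equal replicate number. Cd27 was at 171, 88.4 and 85.7 CPM with Treg and at 84.6, 66.0 and 71.4 CPM without, higher in 3 of 3 pairs. Libraries of equal number deviated alike in this comparison (r 0.164 to 0.478), but the labels do not say what a shared number means. With the number as a block the adjusted p was 0.521 for Cd226 and 0.514 for Cd27 (edgeR). Tnfsf8 had the smallest p of the members, at 141, 114 and 157 CPM with Treg and 102, 71.5 and 62.9 CPM without (0.80 ± 0.20 SE, adjusted p = 0.694, edgeR).

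HP1g KO cells with Treg rested on 2 libraries that differed from each other in most members. Replicate 1 held 130 CPM of Tnfrsf9, 422 of Tnfrsf4, 357 of Cd27 and 26.8 of Cd226, and replicate 2 held 39.0, 167, 180 and 138 CPM of the same genes. The replicate 1 values of Tnfrsf9, Cd27 and Cd226 were near those of HP1a WT Tconv with Treg. Against HP1g KO Tconv, edgeR called none of 16991 genes (0%), 4 members and 7.62% of genes had an unadjusted p under 0.05, and DESeq2 called Tnfsf8 (1.36 ± 0.33 SE on the log2 scale in the edgeR fit; 1.62% of DESeq2's genes were called). Tnfsf8 was at 342 and 215 CPM with Treg, above 129, 132 and 69.6 CPM without. The groups did not overlap for 5 members and 24.3% of genes.

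Some marker genes of Treg changed as well. Of 10 Treg markers 3 rose with Treg in HP1a WT cells (Ctla4, Ikzf2 and Gpr83), none was called lower and 3 had a negative fold change, where 5.96% of all genes tested were called. The sum of all 10 was 888 to 1060 CPM against 498 to 736 CPM in Tconv. In the HP1a KO libraries with Treg the sum was 466 to 676 CPM, in HP1g WT 551 to 643 CPM, and in HP1g KO 1335 CPM in replicate 1 and 746 CPM in replicate 2. The following 3 markers were picked after their values were seen. Foxp3 was at 13.5, 69.2 and 18.1 CPM in HP1a WT cells with Treg, against 12.1, 9.0 and 4.40 CPM in Tconv of that group. It was at 8.57, 34.8 and 16.3 CPM in HP1a KO, at 3.37 to 4.57 CPM in HP1g WT and at 8.46 and 11.2 CPM in HP1g KO cells with Treg. Il2ra was lower in each HP1a WT library with Treg (10.7, 27.8 and 14.9 CPM) than in each Tconv library (42.1, 41.6 and 39.0 CPM). Itgae was at 8.0, 41.3 and 13.5 CPM with and at 25.9, 176 and 49.8 CPM without Treg, with groups that overlapped. No Treg marker was at 0 in all libraries of any group, and the sort had removed cells carrying Thy1.1. Tnfrsf9 and Cd27 are also made by Treg, and the paper reports that Treg converted part of the Tconv to an anergic or regulatory state. Whether either bears on the calls was not tested. Of 12 myeloid markers 4 of the 7 tested also rose with Treg in HP1a WT cells, to a sum of 26.1 to 61.9 CPM from 6.85 to 7.92 CPM. The 6 erythroid markers summed to 6103 CPM in replicate 1 and 112 CPM in replicate 2 of HP1g KO with Treg, to 154 to 3475 CPM in HP1g WT, to 112 to 703 CPM in HP1a KO and to 2.66 to 49.96 CPM in HP1a WT cells with Treg. In every grafted HP1g group replicate 1 was the highest, at 3475 CPM in WT with Treg, 4963 CPM in WT Tconv and 3326 CPM in KO Tconv. The other grafted HP1g libraries used here lay between 75.7 and 312 CPM. The part of these lists in the results was not tested.

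**Figure D3:**
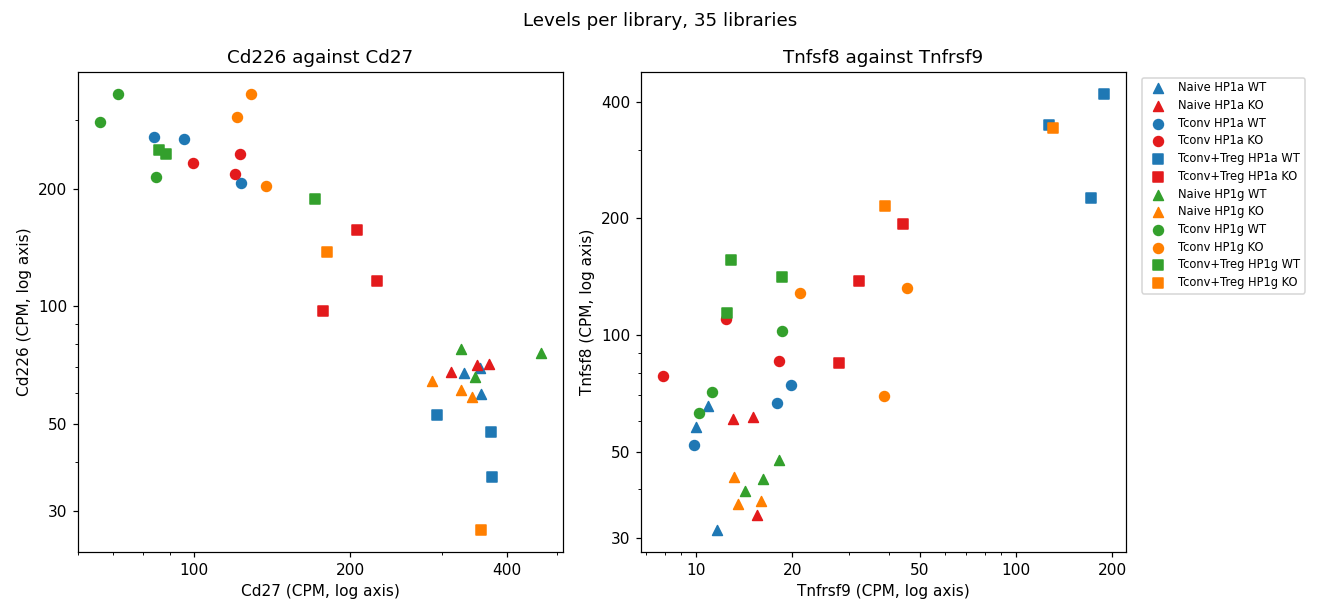
Cd226 against Cd27 (left) and Tnfsf8 against Tnfrsf9 (right) in CPM, log axes, with 1 point for each of the 35 libraries; shape gives the condition and colour the line and genotype. The 16 libraries with Cd27 above 250 CPM had Cd226 between 26.8 and 77.8 CPM, and the 14 with Cd27 under 150 CPM had Cd226 between 204 and 350 CPM.

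Across all libraries the levels of Cd27 and Cd226 ran opposite to each other. The 16 libraries with Cd27 above 250 CPM were the 12 naive ones, the 3 HP1a WT libraries with Treg and replicate 1 of HP1g KO with Treg, and their Cd226 was at most 77.8 CPM. The 5 libraries with Cd27 between 171 and 226 CPM had Cd226 between 97.1 and 189 CPM. The 14 others, with Cd27 under 150 CPM, had Cd226 of 204 CPM or more. Libraries share their composition, depth and scaling, and the limits of 150 and 250 CPM were set after the values were seen.

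Loss of HP1a or HP1g was then compared with WT in each condition. In naive cells no member was called in either line by edgeR (0% of genes called in the HP1a and 0.00669% in the HP1g line) or by DESeq2 (0.0837% and 0.208%), with 3 members in the HP1a and 0 in the HP1g line at an unadjusted p under 0.05 (1.87% and 5.78% of genes). Those 3 were Tnfrsf9, Cd5 and Cd6, at log2 fold changes of 0.42 ± 0.14, 0.18 ± 0.07 and 0.22 ± 0.07 (SE). In naive HP1a cells, Cd28 was at 637 CPM in WT replicate 1 and 645 CPM in KO replicate 1, and between 352 and 402 CPM in the other 4 libraries, and Tnfsf8 was lowest in the same 2 libraries. The 5 activated T cell markers listed summed to 785 and 919 CPM in these 2 and to 271 to 306 CPM in the other 4. In naive HP1g libraries they summed to 697 to 1174 CPM, and in grafted libraries to 1356 to 3171 CPM. Naive libraries were also the reference after graft, and the part of this spread was not tested.

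In Tconv without Treg edgeR called no member in either line (0.103% of genes called in the HP1a and 0.0437% in the HP1g line). In the HP1a line 1 member, Tnfsf8, had an unadjusted p under 0.05, as had 8.53% of genes (Tnfsf8 0.50 ± 0.17 SE on the log2 scale, adjusted p = 0.552), and DESeq2 called none (1.11% of its genes). In the HP1g line there were 2, beside 8.42% of genes. Cd27 was at 137, 129 and 121 CPM in KO and at 84.6, 66.0 and 71.4 CPM in WT libraries (0.82 ± 0.11, adjusted p = 0.10, edgeR). Tnfrsf9 was at 21.1, 45.7 and 38.8 CPM in KO and 18.6, 11.2 and 10.2 CPM in WT libraries (1.42 ± 0.34, adjusted p = 0.294), and DESeq2 called it (1.43% of its genes). For both genes every KO library lay above every WT library, as was so for 2 of 9 members and, in either direction, 13.9% of genes.

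With Treg present the 2 lines moved apart. In the HP1a line Tnfrsf9 was lower in KO cells, at 28.0, 44.3 and 32.3 CPM, than in WT cells, at 127, 189 and 172 CPM. The log2 fold change was -2.24 ± 0.24 (SE; adjusted p = 0.0328, edgeR), and Tnfrsf9 was the 1 member called, where 0.123% of 16256 genes were. That call was lost when WT replicate 1, WT replicate 2, KO replicate 1 or KO replicate 3 was left out, although the fold kept its direction in every such fit. DESeq2 called 3 more members (3.84% of its genes), Tnfrsf4 at -1.19 ± 0.20, Tnfsf8 at -1.27 ± 0.34 and Cd226 at 1.42 ± 0.23 in the edgeR fit, where their adjusted p were 0.0789, 0.206 and 0.0761.

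Tnfrsf4 was at 74.6, 112 and 82.2 CPM in HP1a KO and at 224, 206 and 178 CPM in WT cells with Treg. Cd226 was at 157, 97.1 and 116 CPM in KO and at 36.5, 52.7 and 47.6 CPM in WT cells. The 2 groups did not overlap for 6 of 9 members, against 21.5% of all genes tested. Myeloid markers summed to 225 to 607 CPM in the KO libraries and to 26.1 to 61.9 CPM in the WT libraries of this comparison. Of the 10 tested 1 was called, where 0.123% of all genes tested were. Their part was not tested.

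In the HP1g line the fold changes had the opposite sign. Tnfrsf9 was at 130 and 39.0 CPM in KO and at 18.5, 12.5 and 12.9 CPM in WT cells with Treg (log2 fold change 2.55 ± 0.49 SE, adjusted p = 0.194, edgeR). Tnfrsf4 was at 422 and 167 CPM in KO and at 106, 93.2 and 131 CPM in WT cells (1.43 ± 0.38, adjusted p = 0.248, edgeR). Cd226 was at 26.8 and 138 CPM in KO and at 189, 246 and 251 CPM in WT cells (-1.46 ± 0.65, adjusted p = 0.465).

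EdgeR called none of 17177 genes there (0%), and 4 members and 11.8% of genes had an unadjusted p under 0.05. DESeq2 called those 4, Cd27, Tnfrsf4, Tnfrsf9 and Tnfsf8, all higher in KO (3.57% of its genes). The groups did not overlap for 6 members and 29.2% of genes. Without KO replicate 2 edgeR called 5 members, Tnfrsf4, Tnfrsf9, Cd40lg, Tnfsf8 and Cd226, and 362 of all 18123 genes tested, in a fit where the lone KO library is assumed to vary like the WT ones; without KO replicate 1 it called none. With the set-aside KO library included it also called none. That library held 22.2 CPM of Tnfrsf9, 41.3 of Tnfrsf4 and 1527 of Cd28, the last above every other library.

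**Figure D4:**
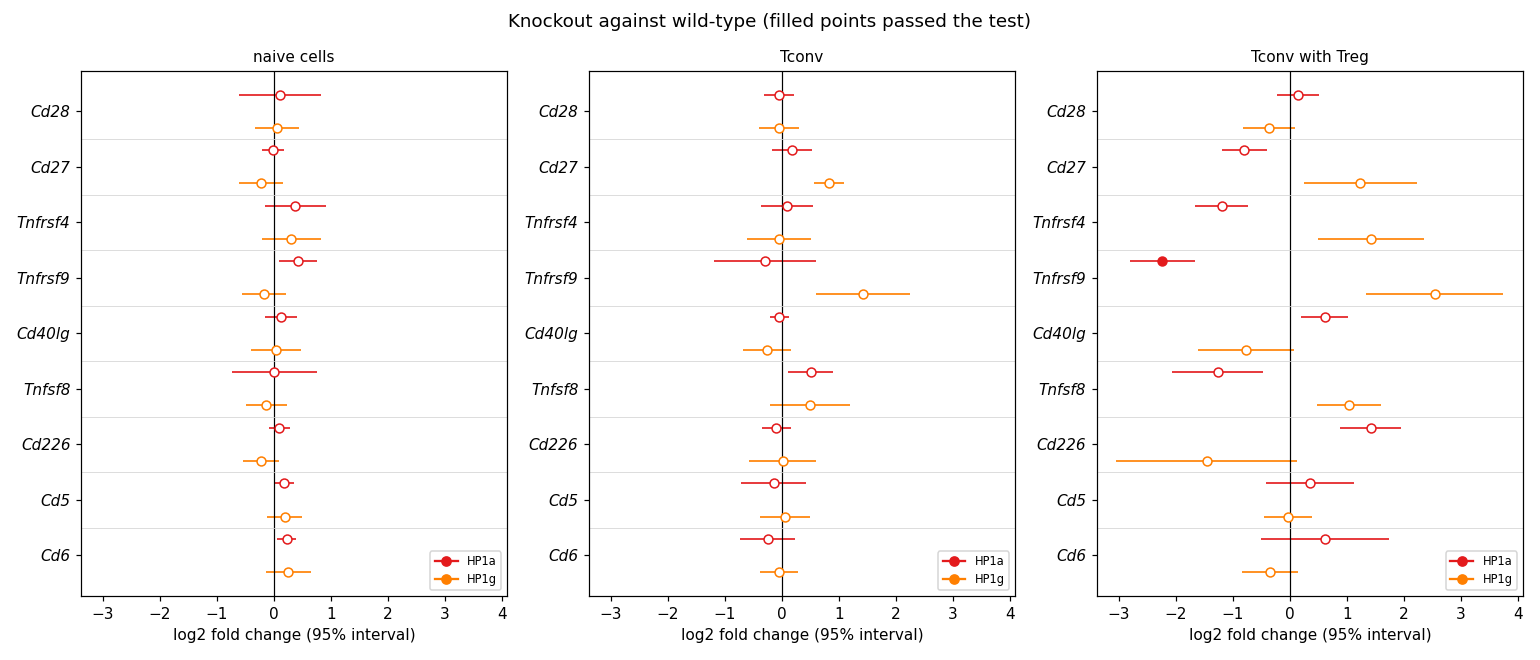
Log2 fold change of KO against WT with its 95% interval for each gene in naive cells, Tconv and Tconv with Treg, in the HP1a (red) and HP1g (orange) lines; filled points were called by edgeR. With Treg, Cd27, Tnfrsf4, Tnfrsf9 and Tnfsf8 lay below 0 in the HP1a line and above 0 in the HP1g line, and Tnfrsf9 in the HP1a line was the 1 called value.

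Whether loss of HP1a changed the response to Treg was tested as an interaction of genotype and Treg. EdgeR called no member in either line (0.139% of genes in the HP1a line and 0% in the HP1g line), with 6 members in the HP1a and 1 in the HP1g line at an unadjusted p under 0.05 (9.74% and 3.74% of genes). In the HP1a line Cd226 came nearest, with a KO minus WT difference of 1.53 ± 0.27 (SE, log2 scale; adjusted p = 0.0562, edgeR). Tnfrsf9 differed by -1.92 ± 0.46, Tnfsf8 by -1.76 ± 0.41 and Tnfrsf4 by -1.27 ± 0.28, at adjusted p of 0.129, 0.128 and 0.119. DESeq2 called these 4 (1.84% of its genes). In the HP1g line the nearest was Tnfrsf4, with 1.47 ± 0.49 (adjusted p = 1.0, edgeR), and DESeq2 called none (0.0543%). For activation in place of Treg, edgeR called no member in either line (0.00587% and 0.0235% of genes), with 0 members in the HP1a and 2 in the HP1g line at an unadjusted p under 0.05 (4.89% and 7.89% of genes). DESeq2 called none in the HP1a line (0.359%) and those 2, Cd27 and Tnfrsf9, in the HP1g line (0.601%).

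The effects of the 2 knockouts with Treg were compared directly. The HP1g minus HP1a difference was 4.77 ± 0.57 for Tnfrsf9, 2.61 ± 0.44 for Tnfrsf4, 2.29 ± 0.46 for Tnfsf8 and 2.02 ± 0.45 for Cd27 (SE, log2 scale), and these 4 of 9 were called (adjusted p = 0.00618, 0.0166, 0.0296 and 0.0421, edgeR), where 2.72% of 18573 genes were. Of the 11 fits that omitted a library, Tnfrsf9 was called in 11, Tnfrsf4 in 7, and Tnfsf8 and Cd27 in 3. With the set-aside library included none was called. Cd226 differed by -2.88 ± 0.70 (adjusted p = 0.0566, edgeR) and Cd40lg by -1.39 ± 0.39 (adjusted p = 0.0869), and DESeq2 called all 6 (7.47% of its genes).

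This difference holds 4 groups, and the WT groups of the 2 lines differed as well. The effect of Treg in WT cells, HP1g minus HP1a, was -3.23 ± 0.42 for Tnfrsf9, -1.57 ± 0.34 for Tnfsf8 and 2.12 ± 0.29 for Cd226 (SE, log2 scale; adjusted p = 0.00525, 0.0409 and 0.00642, edgeR), the 3 members called, where 1.56% of 17127 genes were. Tnfrsf9 and Cd226 were called in all 12 fits without 1 library, and Tnfsf8 in 1 of them. DESeq2 called 5, with Cd27 and Tnfrsf4 added (4.54% of its genes). The sources do not say whether the lines were grafted or sequenced together. The paper states that, at the Treg ratio of its HP1g sequencing experiment, the response of WT cells was poorly repressed. It does not give the ratio of the sequenced groups, so line, Treg ratio and experiment cannot be told apart. Both comparisons use the HP1a WT and HP1g WT libraries with Treg.

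Cd28, Cd5 and Cd6 were not called in any of the 14 comparisons of 2 groups, by edgeR or by DESeq2. Cd28 (chr1:60755959-60812518) had group means of 449 to 697 CPM, Cd5 (chr19:10694480-10716366) of 364 to 556 CPM and Cd6 (chr19:10766705-10807422) of 626 to 968 CPM. Cd6 passed the adjusted p under the fold threshold in HP1a WT cells after graft (0.37 ± 0.12 SE on the log2 scale, adjusted p = 0.0302, edgeR; 45.7% of genes passed so), with every Tconv library above every naive one. Their log2 fold changes there ranged from -0.37 to 0.44 for Cd28, from -0.17 to 0.51 for Cd5 and from -0.46 to 0.62 for Cd6. Over the 6 comparisons of KO with WT the 95% intervals reached from -0.82 at the lowest to 0.82 at the highest for Cd28, from -0.72 to 1.13 for Cd5 and from -0.84 to 1.74 for Cd6.

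Single libraries widened these intervals. Cd6 was at 713 and 926 CPM in replicates 1 and 2 of HP1a WT with Treg and at 238 CPM in replicate 3. It was at 1400 CPM in replicate 2 of HP1a KO with Treg, where Cd5 was at 786 CPM, the highest of all libraries for both genes. Cd40lg (chrX:56257405-56269902) was also not called by either tool in these 14 comparisons, with log2 fold changes from -0.90 to 0.64. It passed an adjusted p of 0.05 without the fold threshold in HP1a WT cells after graft (0.64 ± 0.12 SE, adjusted p = 0.00256, edgeR), in HP1a KO cells after graft (40.6%; 0.48 ± 0.08, adjusted p = 0.00224) and, downward, in HP1a WT cells with Treg.

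Other genes of the pathway were taken as lists. After graft in HP1a WT cells, 6 of the 13 other costimulatory receptors tested were higher and 1 lower, where 23.1% of all genes tested were called. Those with the largest changes were Tnfrsf8 (CD30), which was near 0 in naive cells and at 0.849 ± 0.324 CPM in Tconv, Cd81 (-2.52), Slamf1 (2.21), Icos (2.15) and Tnfrsf18 (1.79 on the log2 scale). Of 10 binding partners of the members 8 were higher and 1 lower. The summed level of the 11 partners listed was nonetheless lower after graft, at 84.6 to 109 CPM in Tconv and 118 to 158 CPM in naive libraries. Cd70, the ligand of CD27, was at 0 in every naive library of this group and at 0.272 ± 0.0559 CPM in Tconv (SD, n = 3), and Alcam, the ligand of CD6, Tnfsf9, the ligand of 4-1BB, and Cd80 had log2 fold changes of 3.62, 3.62 and 3.61. Tnfrsf8, the receptor of Tnfsf8, belongs to this list too. Tnfsf9 was at 12.5 ± 0.676 CPM in Tconv.

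Of 6 listed inhibitory receptors 3 were higher and 1 lower in that comparison, where 23.1% of genes tested were called. Not all of the 6 share a ligand with a member. Tigit changed by 5.54, Cd160 by 3.12 and Btla by -1.03 on the log2 scale, while Pvrig went from 0 in every naive library to 5.94 ± 0.726 CPM (SD, n = 3). Among 34 signalling genes 3 rose and 1 fell (Nfkbia 1.53, Nfkb1 1.38, Traf1 1.1 and Cblb -1.20), and among 10 targets of costimulation 5 rose (Hk2 5.31, Il2 4.58, Il2ra 3.70, Bcl2l1 1.70 and Ccnd3 1.23). The median log2 fold change was 0.37 for the members, 0.95 for the other receptors, 3.25 for the partners, 2.52 for the inhibitory receptors, -0.08 for signalling and 0.88 for the targets, against -0.04 for all genes tested.

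With Treg in HP1a WT cells, 4 of 13 other receptors rose, Cd81 by 3.07, Tnfrsf8 by 2.79, Crtam by 2.01 and Slamf6 by 1.39 on the log2 scale, and none fell. In that comparison 5.96% of all genes tested were called. Tnfrsf8 encodes the receptor of Tnfsf8, so ligand and receptor rose together, the receptor to 5.82 ± 1.26 CPM (SD, n = 3). Of 10 partners 3 rose, Tnfsf4, the ligand of OX40, by 2.87, Tnfrsf8 by 2.79 and Alcam by 2.26. Ctla4, which competes with CD28 for CD80 and CD86, rose by 2.42 to 336 ± 38.2 CPM from 63.8 ± 4.39 CPM. Of the receptors that share a ligand with CD226, Tigit rose by 2.04 and Cd96 fell by 1.56 on the log2 scale, the latter with Cd226 itself. Btla and Cd160 rose by 1.33 and 1.003. None of the 34 signalling genes was called, and of 10 targets Myc, Ccnd3 and Bcl2l1 fell by 1.53, 1.36 and 1.04. The medians were 0.13 for the members, 0.43 for the other receptors, 1.19 for the partners, 1.17 for the inhibitory receptors, -0.21 for signalling and -0.94 for the targets, against 0.03 for all genes tested. In the Treg comparisons of the other 3 groups and in all 6 comparisons of KO with WT, none of the genes of these lists was called by edgeR.

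In the direct comparison of the 2 knockouts with Treg, Tnfrsf8 (4.02), Tigit (3.47), Cd81 (2.46), Ctla4 (2.40) and Zap70 (1.36) had a higher HP1g than HP1a difference on the log2 scale, and Myc (-1.99), Cd96 (-1.85), Tnfaip3 (-1.39) and Pvr (-1.36) a lower one. For the effect of Treg in WT cells of the 2 lines, Cd81 (-2.81), Tigit (-1.79) and Ctla4 (-1.65) were called with Tnfrsf9 and Tnfsf8 on 1 side, and Cd96 (1.70) and Ccnd3 (1.13) with Cd226 on the other. In both comparisons Tigit stood opposite to Cd226 and Cd96.

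The genes most like each member over the 12 group means, among 9354 genes with a mean of 5 CPM or more, are given as a description, since the naive and grafted groups differ in most of them. For Tnfrsf4 these were Cyfip1 (Pearson's r = 0.996) and Ttn (0.995), for Cd226 Lair1 (0.985) and Sephs2 (0.979), and for Cd27 Pacsin1 (0.985) and Ephx1 (0.979). For Tnfsf8 they were Tmem38b (0.984) and Sostdc1 (0.981), and for Tnfrsf9 Nrgn (0.978) and Cacna1d (0.973). The steady members had looser neighbours, Dnajc3 (0.960) and Slc9a3r1 (0.955) for Cd40lg, Fam120a (0.913) and Abhd17c (0.900) for Cd28, Arhgap25 (0.905) and Gga1 (0.898) for Cd6, and Cotl1 (0.771) and Dync1h1 (0.762) for Cd5.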

How the data were processed

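RNA was sequenced from naive CD4 T cells and sorted Tconv with SMART-Seq v4 PLUS libraries. The authors trimmed the reads, aligned them with STAR to GRCm39 and quantified genes with Salmon through an nf-core pipeline, and deposited estimated counts per gene for 36 libraries (82.9% of values whole), with no normalization. The kit does not mark strand, so reads of a gene and its antisense partner cannot be told apart. One library, set aside by the study, was left out.

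Counts were rounded. Each comparison was fitted on its own groups with edgeR 4.0.16 (R 4.3.3) after filterByExpr and TMM scaling, with the quasi-likelihood test and Benjamini-Hochberg adjustment over all genes tested. Calls needed an adjusted p under 0.05 and an absolute log2 fold change above 1, the study's thresholds. Libraries held 37029477 to 63042165 counts, with a median correlation of 0.940 to 0.995 within groups. The alternatives were DESeq2 1.42.0 (the study's tool), RLE scaling, no filter, no fold threshold, all libraries of a line (or of both lines, for differences between lines) in 1 fit, a replicate block, the set-aside library, and leaving out each library. The fits were tested on simulated data.

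The 9 members and all gene lists were chosen with earlier results of these data known. All members are named, with up to 5 called genes of each list by absolute fold change, and the 2 genes most like each member. Numbers shared in the labels were taken to pair the libraries where 3 pairs existed and the deviations of each correlated above 0.1. This held for HP1g WT Tconv with Treg against Tconv (r 0.164 to 0.478) and for naive HP1a KO against WT (r 0.538 to 0.850). HP1g KO against WT with Treg had only 2 pairs (r 0.225 to 0.458), too few for the rule. Libraries of unlike number were not correlated as a reference. Promoters came from RefSeq (GRCm38.p6) and positions from GENCODE vM39, with which 731 gene identifiers did not match.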

Additional observations from a re-analysis of the deposited data

Results flagged for a closer look

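The KO effect with Treg differed between the HP1g and HP1a lines by 4.77 for Tnfrsf9, 2.61 for Tnfrsf4, 2.29 for Tnfsf8 and 2.02 for Cd27 on the log2 scale, each past the threshold in a direct test of the difference (edgeR). Tnfsf8 and Cd27 were lost in most fits without 1 library, and no member was called with the set-aside library included. The HP1g KO side rested on 2 libraries that differed from each other. The effect of Treg in WT cells differed between the lines by -3.23 for Tnfrsf9, -1.57 for Tnfsf8 and 2.12 for Cd226, again by a direct test. Here too Tnfsf8 was lost in most fits without 1 library. Both tests set 1 line against the other, and line, Treg ratio and experiment cannot be told apart.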

How the results depend on the processing

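With DESeq2 the number of members called was 1 for Treg in HP1a KO and 1 in HP1g KO cells, 4 for HP1a KO against WT with Treg, 4 for HP1g KO against WT with Treg, 1 for HP1g KO against WT in Tconv, 4 for the HP1a difference of the Treg effect, 2 for the HP1g difference of activation, and 5 for the difference of the Treg effect between WT groups of the lines. Without the fold threshold it was 5 for activation in HP1a WT and 5 in HP1a KO cells, 4 in HP1g WT cells, 5 for Treg in HP1a WT and 1 in HP1a KO cells. Without the filter on low counts it was 3 for HP1a KO against WT with Treg and 1 for the HP1a difference of the Treg effect. With all libraries of a line in 1 fit it was 1 for Treg in HP1a KO cells, 4 and 3 for KO against WT with Treg in the HP1a and HP1g lines, and 3 for the HP1a difference of the Treg effect. With both lines in 1 fit it was 6 for the difference of the KO effects and 4 for that of the Treg effect in WT cells. The share of all genes called without the filter or with pooled libraries is not given here. These moves therefore cannot be read as particular to the members. With the set-aside library the difference of the KO effects between lines had 0 calls in place of 4, and the HP1g KO mean with Treg moved to 857 CPM for Cd28 and 271 CPM for Cd5.

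Fits that left a lone HP1g KO library with Treg are set apart here. With 1 library left out the counts otherwise ran from 0 to 1 for Treg in HP1a KO cells, where 0.144% of genes were called in the fit with 1. For HP1a KO against WT with Treg they ran from 0 to 2 (0.672% of genes in the fit with 2). For the HP1a difference of the Treg effect they ran from 0 to 1 (0.278% to 0.511% of genes in the fits with 1). For the difference of the KO effects between lines they ran from 1 to 3, with 0.386% to 4.02% of genes called. The counts for HP1g KO against WT with Treg and for the HP1g difference of the Treg effect stayed at 0. A replicate block changed no call of a member in any of the 20 comparisons, with 3 members called for activation in HP1a WT cells and 4 for Treg in HP1a WT cells as without the block. RLE scaling moved no count. No called fold change of a member changed sign under any alternative. DESeq2 called 3.84% of genes for HP1a KO against WT with Treg and 3.57% for HP1g, where edgeR called 0.123% and 0%. Depth did not limit the members, whose lowest count was 148.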
